A study of Mus musculus with 6 samples.

Results

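The genes that copy DNA and take a cell from G1 into S phase were followed in RNA from the mouse mammary gland. The set held 35 genes, matched by symbol among the 17464 symbols of the deposited tables: the helicase subunits and licensing factors, the polymerases, the sliding clamp and its loader, enzymes of nucleotide synthesis, and the cyclins and E2F factors that open S phase. Of these, 34 reached 1 FPKM in 3 or more libraries and were tested, among 11516 genes in all. FPKM is a read count divided by gene length and by library total. Mcm10 did not pass, with values between 0.450 and 0.871 FPKM. The title of the series names endothelial cells, while every sample label names mammary gland as the tissue, so which cells went into the RNA is not certain. Both groups were wild-type C57BL/6 mice at postnatal day 45. One group of 3 samples was untreated and the other group of 3 had received recombinant mouse CXCL14 protein, a chemokine. How much CXCL14 was given, how and for how long is not stated in the sources used here. Whether the 3 samples of a group were separate animals is not stated either, so p-values reflect only the spread among these samples, and that spread may be technical.

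DNA is copied from origins that are prepared in G1 and fired in S phase. The origin recognition complex, Cdc6 and Cdt1 load the ring of Mcm2 to Mcm7 on DNA, and Cdc45 and the GINS complex turn that ring into a moving helicase. DNA polymerases then follow, held on DNA by the ring-shaped clamp PCNA. Many of these genes are transcribed by E2F factors once cyclin-dependent kinases inactivate the retinoblastoma protein. In the pubertal mammary gland, dividing cells include those of the ducts and terminal end buds, and lymphoid cells may be dividing in a lymph node that is taken with the tissue.

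No member passed the test between the groups. Fold changes were fitted with limma-trend on log2(FPKM + 1), and all fold changes below are on that scale as CXCL14 against untreated. The members' median was 0.08, within a range from -0.19 to 0.48, against a median of -0.06 over all 11516 genes. Of the 34 tested, 21 had a positive fold change, or 61.8%, against 37.2% of all genes. Under median-ratio scaling 26 did, against 52.4% of all genes. None had an adjusted p under 0.05, against 0.0% of all genes, and the smallest adjusted p of any gene was 0.573. At an unadjusted p under 0.05, 5 members were found, all with higher values after CXCL14, where 3.41% of all genes were found higher and 7.77% in either direction. These were Cdt1, Pcna, Rfc3, Rrm2 and E2f2. The count depended on the libraries. It was 0 without untreated replicate 2, CXCL14 replicate 2 or CXCL14 replicate 3, where 3.67%, 1.13% and 1.75% of all genes were found. It was 3 without untreated replicate 1 or 3, where 3.08% and 3.32% were, and 8 under median-ratio scaling, where 7.2% were. With voom on whole reads, 0 members were called and 5 had an unadjusted p under 0.05, where 7.83% of all genes did. All 3 CXCL14 libraries lay above all 3 untreated ones for 7 members, against 4.74% of all genes. The reverse held for 1 member, Prim1, against 8.36% of all genes. Fewer dividing cells and less RNA per cell cannot be told apart in such bulk samples, nor can more of either.

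CXCL14 replicate 1 lay with the untreated libraries rather than with the other CXCL14 libraries. On the first principal component of all tested genes, which held 61.1% of the variance, it stood at 24.1, beside 27.2 for untreated replicate 1, while CXCL14 replicates 2 and 3 stood at -28.4 and -34.2. Its reads differed from those of untreated replicate 1 by a chi-square of 2.42 per gene, where the other 14 pairs of libraries gave between 25.7 and 98.8. That is above counting noise, which gives about 1 per gene. Repeat libraries of the same sample can also differ by more than counting noise. The value therefore cannot tell whether these were separate samples, and both libraries were kept as labelled. Over the tested members, the median absolute log2 difference was 0.08 between those libraries and 0.12 between CXCL14 replicates 2 and 3, against 0.13 to 0.27 between the other pairs. Counts over the members, and the fold changes of many genes below, are therefore given with and without it. Without it, 597 of all genes were called (5.18%), 249 of them higher and 348 lower, and still 0 of the members. Under median-ratio scaling the split was 321 higher and 117 lower. Reads on genes, as recovered from the FPKM values, were between 15245981 and 16983352 per library.

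Markers of several cell types, lymphoid ones included, were present and varied between libraries. The summed FPKM of 6 B cell markers was between 1145 and 1300 in untreated libraries and between 1058 and 1275 after CXCL14, and each of the 6 was at least 1 in every library. Of 6 germinal centre B cell markers, 4 were under 1 in every library and 1 was at least 1 in every library. The sum of all 6 lay between 14.7 and 19.6. The sum of 6 T cell markers was between 495 and 617 in untreated libraries, and it was 570, 342 and 286 in CXCL14 replicates 1, 2 and 3. The sum of 7 neutrophil markers was between 9.37 and 40.6 in untreated libraries, and 34.2, 279 and 378 after CXCL14, with Camp and Mmp8 at 0 in at least 1 library. The sum of 6 macrophage markers was between 70.8 and 264 untreated, and 265, 27.4 and 53.4 after CXCL14. The sum of 6 luminal epithelial markers, which mark the labelled tissue, was between 104 and 319 untreated and between 212 and 273 after CXCL14. The sum of 4 plasma cell markers was higher in all CXCL14 libraries, at 116, 141 and 147, than in untreated ones, at 71.0 to 108. The sum of 6 endothelial markers was between 281 and 593 untreated, and 284, 524 and 839 after CXCL14. The sum of 5 fibroblast markers was 507, 430 and 48.1 untreated, and 473, 43.4 and 56.3 after CXCL14. The sum of 5 white adipocyte markers was between 885 and 1884 untreated, and 956, 1817 and 2990 after CXCL14. The sum of 5 basal epithelial markers had overlapping groups, between 13.1 and 40.4. The part of these cell types in the results below was not tested.

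**Figure D1:**
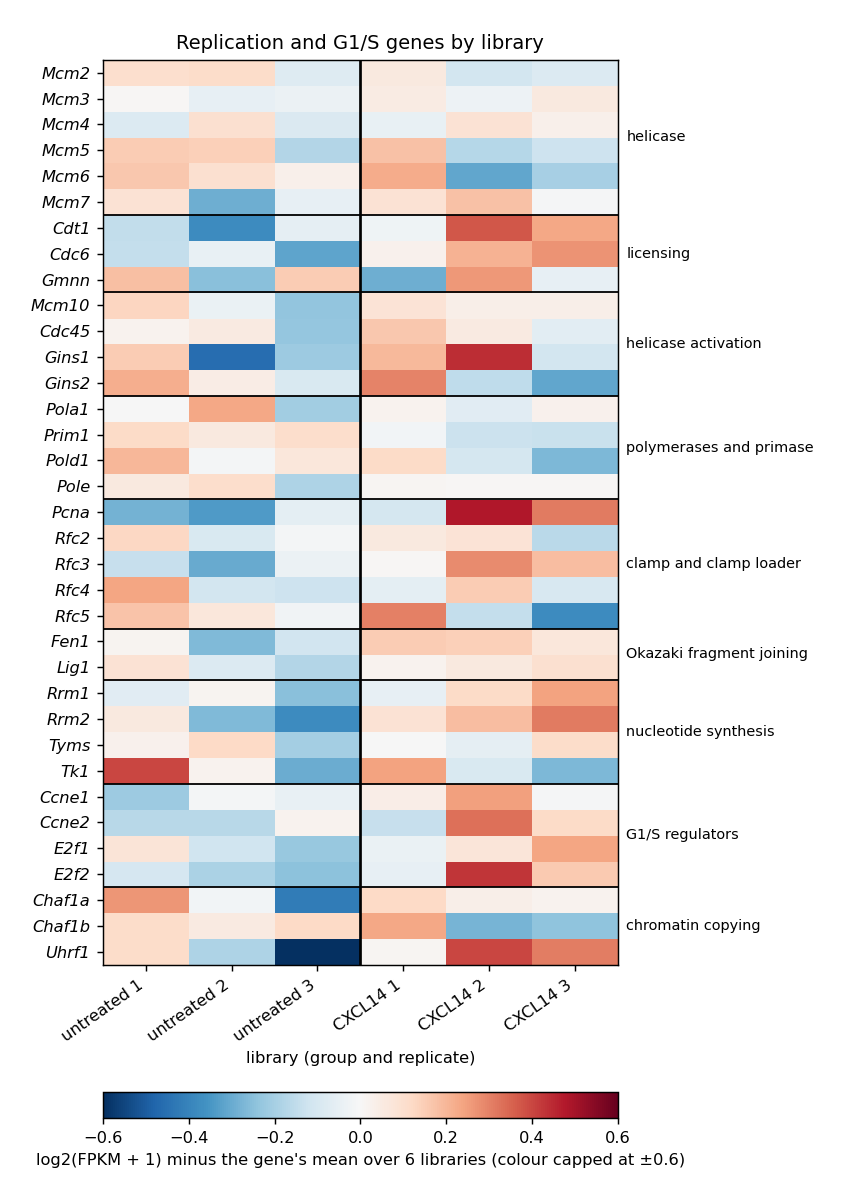
Heat map of the 35 genes (rows, by role) in the 6 libraries (columns); colour gives log2(FPKM + 1) minus the gene's mean over the libraries, capped at 0.6 on either side. The column of CXCL14 replicate 1 looks like that of untreated replicate 1, with a median absolute difference of 0.08 over the tested members, and Cdt1, Pcna, Rfc3, Rrm2 and E2f2 are redder in CXCL14 replicates 2 and 3 than in all untreated libraries.

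The promoters of these genes were read first, since E2F binding is the regulation the set is known for. RefSeq windows of 300 bases, from 250 before to 50 after a gene's start in build GRCm38.p6, were at hand for 28 of the 35 genes. They were searched on both strands for the E2F words TTTCCCGC, TTTCGCGC, TTTGGCGC and TTTGCCGC. A word was found in 12 of the 28 genes, or 42.9%, against 2.63% of all 26742 genes with a window and 4.74% of the 9219 of them that were tested here. Mcm6 held the most words, and its window is shown with those of Mcm5, Cdc6 and Pola1 from -160 to -1 relative to the start, on the gene's strand, with words in capitals. The Cdc6 window lies in an intron of longer GENCODE transcripts of Cdc6. In Mcm6 and Mcm5 a forward and a reverse word overlap in one palindrome-like run.
Mcm6, chr1:128359706-128359865, minus strand: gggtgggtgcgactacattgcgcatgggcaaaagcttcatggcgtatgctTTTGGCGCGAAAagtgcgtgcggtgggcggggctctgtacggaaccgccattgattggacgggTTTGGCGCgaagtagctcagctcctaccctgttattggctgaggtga
Mcm5, chr8:75109349-75109508, plus strand: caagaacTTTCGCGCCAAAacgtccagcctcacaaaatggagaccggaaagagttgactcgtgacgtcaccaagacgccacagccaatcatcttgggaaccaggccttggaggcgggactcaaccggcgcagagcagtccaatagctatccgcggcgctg
Cdc6, chr11:98907991-98908150, plus strand: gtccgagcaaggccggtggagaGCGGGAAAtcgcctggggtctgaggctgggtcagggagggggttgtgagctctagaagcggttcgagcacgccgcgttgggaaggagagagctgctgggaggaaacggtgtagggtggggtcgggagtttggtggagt
Pola1, chrX:93632156-93632315, minus strand: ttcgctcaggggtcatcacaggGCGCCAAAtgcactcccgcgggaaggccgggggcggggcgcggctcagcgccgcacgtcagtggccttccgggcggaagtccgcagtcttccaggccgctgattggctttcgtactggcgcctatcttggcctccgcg

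Words also lay at or just after the start in genes whose values are described below. They are shown for the 3 of them with an unadjusted p under 0.05, as 30 bases around the word, which is in capitals. The runs go from 21 to 50 for Cdt1 and E2f2 and from -16 to 14 for Rfc3, where one word is followed by another on the opposite strand.
Cdt1, chr8:122568035-122568064, plus strand: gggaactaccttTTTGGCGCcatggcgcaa
E2f2, chr4:136172294-136172323, plus strand: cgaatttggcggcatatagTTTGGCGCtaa
Rfc3, chr5:151651195-151651224, minus strand: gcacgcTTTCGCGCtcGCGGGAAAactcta
Of the other 2 such members, Pcna and Rrm2 held no word in their windows. Both held the NF-Y box CCAAT, which is shown in capitals for Rrm2 from -160 to -21.
Rrm2, chr12:24708094-24708233, plus strand: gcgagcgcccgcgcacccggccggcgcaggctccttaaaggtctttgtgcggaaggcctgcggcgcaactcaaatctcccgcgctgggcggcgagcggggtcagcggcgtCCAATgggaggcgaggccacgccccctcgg
A match describes these letters in this window and not a bound site. CCAAT was found in 57.1% of the members, 41.0% of all genes and 42.6% of the genes tested here. The CHR element TTTGAA, known from promoters of genes active in G2 and mitosis, was found in 14.3% of the members, in 20.1% of all genes, in 14.2% of the genes tested here and in 66.7% of 18 mitosis genes. Members with and without a word had fold changes of both signs: 8 of the 12 with a word and 9 of the 15 tested without one had a positive fold change, with medians of 0.14 and 0.10.

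**Figure D2:**
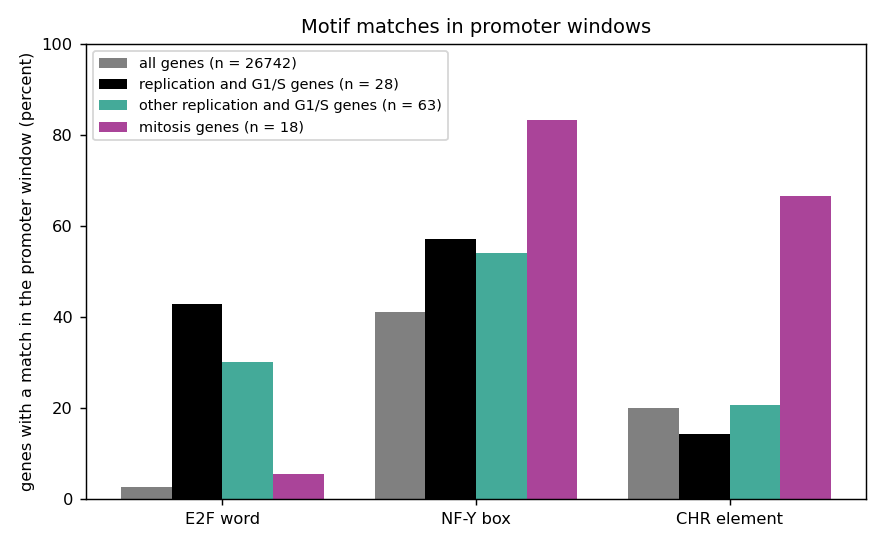
Share of genes, in percent, whose promoter window held at least one E2F word, NF-Y box or CHR element; bars are all genes with a window, the replication and G1/S genes, other replication and G1/S genes, and mitosis genes. The E2F word was found in 42.9% of the replication and G1/S genes and 5.56% of the mitosis genes, and the CHR element in 14.3% and 66.7%.

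The RNA levels of the 6 subunits of the helicase ring differed by up to 1.85 times within a library. FPKM compares genes through gene lengths that are not stated, and it does not measure protein. Within a library, the subunit with the lowest FPKM was Mcm5 in all 6 libraries, at 12.8 to 16.6, and the highest was Mcm4 or Mcm7, at 21.0 to 24.0. The ratio of highest to lowest was 1.36, 1.48 and 1.64 in untreated replicates 1 to 3, and 1.34, 1.85 and 1.71 in CXCL14 replicates 1 to 3. Of the 6 fold changes, 3 were positive and 3 negative, from -0.19 to 0.17, with a median of -0.02, and no subunit's groups stood apart. Mcm4, the subunit with the highest mean, was at 21.1, 24.0 and 21.0 FPKM in untreated libraries and at 21.6, 23.8 and 22.8 after CXCL14. These values overlap fully. Its log2 fold change was 0.05 (SE 0.10, adjusted p by limma-trend = 0.849).

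Mcm6, which makes up the ring between Mcm2 and Mcm4, was at 18.9, 18.0 and 17.1 FPKM untreated and at 19.7, 13.3 and 14.5 after CXCL14. CXCL14 replicate 1 was the highest of all 6 libraries and the other CXCL14 libraries were the lowest. The log2 fold change was -0.19 (SE 0.15, adjusted p by limma-trend = 0.648) over all libraries and -0.35 (SE 0.09, adjusted p = 0.0765) without CXCL14 replicate 1. It was -0.08 without CXCL14 replicate 2. Mcm7, a subunit of the ring's catalytic core, was at 22.2, 16.9 and 20.2 FPKM untreated and at 22.2, 23.8 and 20.8 after CXCL14. Untreated replicate 2 was the low library, and the groups overlap. Its fitted fold change was 0.17 (SE 0.12, adjusted p by limma-trend = 0.623), and 0.07 without untreated replicate 2. Mcm2, Mcm3 and Mcm5 had fold changes of -0.09, 0.05 and -0.08.

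Among the licensing factors, the loaders Cdt1 and Cdc6 had higher values in every CXCL14 library than in any untreated one, while geminin, which inhibits Cdt1, did not. Cdt1, which brings the helicase to origins, was at 55.2, 46.9 and 59.1 FPKM untreated and at 60.2, 79.8 and 72.1 after CXCL14. The groups did not overlap, with CXCL14 replicate 1 nearest to the untreated libraries. The means were 53.7 ± 6.23 and 70.7 ± 9.84 FPKM (SD, n = 3 each). The fitted log2 fold change was 0.39 (SE 0.14, adjusted p by limma-trend = 0.573), and 0.49 without CXCL14 replicate 1 (SE 0.13, adjusted p = 0.0765). Cdc6, the ATPase that loads the ring, was at 1.16, 1.30 and 0.912 FPKM untreated and at 1.42, 1.75 and 1.87 after CXCL14. There was no overlap between the groups, on 73 to 153 reads per library. Cdc6 reached 1 FPKM in 2 untreated and 3 CXCL14 libraries, so the group in which it was high helped it pass the filter. Its fold change was 0.34 (SE 0.14, adjusted p by limma-trend = 0.573), and 0.41 without CXCL14 replicate 1 (SE 0.14, adjusted p = 0.137). Gmnn encodes geminin, which blocks relicensing. It was at 2.74, 1.77 and 2.68 FPKM untreated and at 1.70, 2.96 and 2.19 after CXCL14. These groups overlapped, with a log2 fold change of -0.06 (SE 0.19, adjusted p by limma-trend = 0.919). Within a library, the FPKM of Cdt1 was between 20.2 and 35.5 times that of Gmnn.

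The genes that activate the helicase were low, and none of their groups stood apart. Cdc45, which joins the ring at firing, was at 1.58, 1.63 and 1.16 FPKM untreated and at 1.84, 1.64 and 1.43 after CXCL14. The groups overlapped, with a log2 fold change of 0.10 (SE 0.14, adjusted p by limma-trend = 0.772). Gins1, a subunit of the GINS complex, was at 1.65, 0.731 and 1.04 FPKM untreated and at 1.72, 2.23 and 1.20 after CXCL14. Both groups spread widely and overlapped, on only 18 to 59 reads per library. This gave a log2 fold change of 0.35 (SE 0.22, adjusted p by limma-trend = 0.596). Gins1 reached 1 FPKM in 2 untreated and 3 CXCL14 libraries, so the group with the higher mean helped it pass the filter. Gins2, of the same complex, was at 3.46, 2.95 and 2.59 FPKM untreated and at 3.71, 2.45 and 2.08 after CXCL14. Here the libraries numbered 1 were the highest of both groups. Its log2 fold change was -0.11 (SE 0.19, adjusted p by limma-trend = 0.820) and changed sign without CXCL14 replicate 3, to 0.02. Mcm10, which acts at the same step, was at 0.871, 0.664 and 0.450 FPKM untreated and at 0.810, 0.750 and 0.752 after CXCL14, so the groups overlapped.

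Of the polymerase and primase genes, 3 of 4 had negative fold changes, as did 7235 of all 11516 genes. Prim1, the primase subunit that makes the RNA primer, was at 9.28, 8.88 and 9.21 FPKM untreated and at 8.38, 7.67 and 7.66 after CXCL14. All CXCL14 libraries were below all untreated ones, CXCL14 replicate 1 being nearest. The means were 9.12 ± 0.214 and 7.91 ± 0.411 FPKM (SD, n = 3 each). On the log2 scale the fold change was -0.19 (SE 0.09, adjusted p by limma-trend = 0.573), and -0.22 without CXCL14 replicate 1 (SE 0.08, adjusted p = 0.145). Pold1, the catalytic subunit of polymerase delta on the lagging strand, was at 18.2, 15.6 and 16.5 FPKM untreated and at 17.1, 14.5 and 12.8 after CXCL14. The groups overlapped through CXCL14 replicate 1. The log2 fold change was -0.17 (SE 0.13, adjusted p by limma-trend = 0.627), and -0.27 without that library (SE 0.10, adjusted p = 0.159). Without CXCL14 replicate 3 it was -0.08. Pola1 and Pole, the catalytic subunits of polymerases alpha and epsilon, had overlapping groups at 1.80 to 2.80 FPKM, with fold changes of -0.01 and 0.01.

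The clamp Pcna was the most abundant member and had the smallest adjusted p of any member under any setting tried. PCNA encircles DNA and holds polymerases on it, and it also serves DNA repair. It was at 158, 152 and 185 FPKM untreated and at 179, 270 and 240 after CXCL14. CXCL14 replicate 1 lay within the untreated range and the other CXCL14 libraries lay above it. The means were 165 ± 17.6 and 229.8 ± 46.2 FPKM (SD, n = 3 each), on 2947 to 5616 reads per library. The fitted log2 fold change was 0.46 (SE 0.17, adjusted p by limma-trend = 0.573) over all libraries and 0.62 (SE 0.13, adjusted p = 0.0535) without CXCL14 replicate 1.

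The clamp loader subunits had fold changes of both signs. Rfc3, one of its small subunits, was at 7.79, 6.84 and 8.45 FPKM untreated and at 8.71, 10.8 and 9.996 after CXCL14. Untreated and CXCL14 libraries did not overlap, although CXCL14 replicate 1 was close to untreated replicate 3. This gave a log2 fold change of 0.32 (SE 0.12, adjusted p by limma-trend = 0.573), and 0.39 without CXCL14 replicate 1 (SE 0.11, adjusted p = 0.094). Rfc5, another small subunit, was at 9.35, 8.62 and 8.06 FPKM untreated and at 10.3, 7.33 and 6.08 after CXCL14. Its highest library was CXCL14 replicate 1 and its lowest were the other CXCL14 libraries. On the log2 scale the fold change was -0.14 (SE 0.18, adjusted p by limma-trend = 0.756), and -0.33 without CXCL14 replicate 1 (SE 0.12, adjusted p = 0.134). Rfc2 and Rfc4 had fold changes of -0.01 and 0.00 with overlapping groups, at 31.6 to 38.7 and 5.56 to 7.40 FPKM.

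Both genes that join Okazaki fragments had positive fold changes, as did 37.2% of all genes. Fen1, the nuclease that trims the flap ahead of each fragment, was at 11.8, 9.53 and 10.7 FPKM untreated and at 13.1, 13.0 and 12.3 after CXCL14. The groups did not overlap, and here CXCL14 replicate 1 was the highest library. The log2 fold change was 0.24 (SE 0.10, adjusted p by limma-trend = 0.573), and 0.23 without that library (SE 0.11, adjusted p = 0.233). Lig1, the ligase that seals the nick, was at 8.61, 7.55 and 7.003 FPKM untreated and at 8.17, 8.42 and 8.66 after CXCL14. The groups overlapped through untreated replicate 1. Its fitted fold change was 0.12 (SE 0.10, adjusted p by limma-trend = 0.679).

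**Figure D3:**
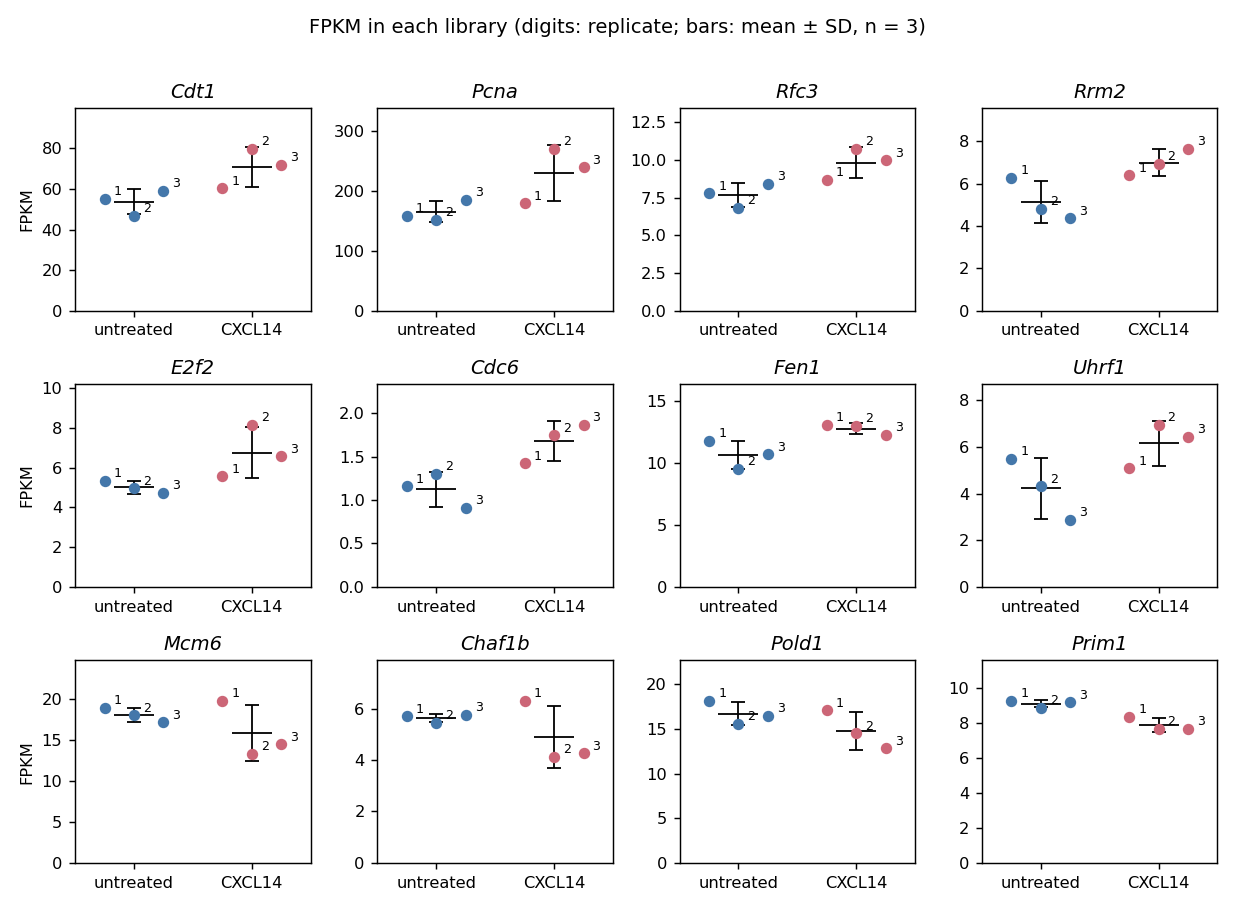
FPKM (vertical axes, from 0) of 12 members in each library of the untreated and CXCL14 groups; digits give the replicate, and bars the mean ± SD of 3 libraries. CXCL14 replicate 1 lies at the untreated level for Pcna, at 179 FPKM against 152 to 185, and is the highest library for Mcm6 and Chaf1b, whose other CXCL14 libraries are the lowest.

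In nucleotide synthesis, the regulated subunit of ribonucleotide reductase stood apart and the salvage kinase did not. Rrm2, the subunit whose level limits the enzyme in S phase, was at 6.26, 4.81 and 4.36 FPKM untreated and at 6.39, 6.92 and 7.64 after CXCL14. There was no overlap between the groups, by a narrow margin between the libraries numbered 1. The fitted log2 fold change was 0.39 (SE 0.14, adjusted p by limma-trend = 0.573), and 0.44 without CXCL14 replicate 1 (SE 0.15, adjusted p = 0.134). Rrm1, the large subunit of the same enzyme, was at 11.8, 12.6 and 10.2 FPKM untreated and at 11.9, 13.5 and 14.8 after CXCL14. The groups overlapped through CXCL14 replicate 1. Its fold change was 0.20 (SE 0.12, adjusted p by limma-trend = 0.587), and 0.28 without that library (SE 0.11, adjusted p = 0.171). Tk1, thymidine kinase, was at 10.2, 7.61 and 5.90 FPKM untreated and at 9.01, 6.95 and 6.03 after CXCL14. The groups overlapped almost fully, and the log2 fold change was -0.08 (SE 0.21, adjusted p by limma-trend = 0.882). Tyms, thymidylate synthase, lay between 1.31 and 1.89 FPKM with overlapping groups and a fold change of 0.04.

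All 4 G1/S regulators in the set had positive fold changes, from 0.18 to 0.36. Of 19 other cyclin, kinase, E2F and Rb genes tested, 6 were positive and 13 negative, with a median of -0.11. The 6 were Ccna2, Cdk2, Skp2, E2f5, E2f7 and E2f8, or 31.6%, against 37.2% of all genes. E2f2, an activating E2F factor, was at 5.35, 4.96 and 4.72 FPKM untreated and at 5.57, 8.16 and 6.57 after CXCL14. Untreated and CXCL14 libraries did not overlap, with CXCL14 replicate 1 just above the untreated libraries. This gave a log2 fold change of 0.36 (SE 0.14, adjusted p by limma-trend = 0.573), and 0.47 without CXCL14 replicate 1 (SE 0.12, adjusted p = 0.077). Without CXCL14 replicate 2 it was 0.23. Ccne1, cyclin E1, which activates CDK2 at the G1/S boundary, was at 2.06, 2.53 and 2.45 FPKM untreated and at 2.66, 3.22 and 2.54 after CXCL14. The groups did not overlap, but by a margin of 0.01 FPKM, which is smaller than the counting error of 64 to 104 reads per library. Its log2 fold change was 0.18 (SE 0.13, adjusted p by limma-trend = 0.616). Ccne2, cyclin E2, and E2f1, another activating E2F, had overlapping groups and fold changes of 0.21 and 0.18, at 1.30 to 2.25 and 2.43 to 3.73 FPKM.

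The genes that rebuild chromatin on new DNA had fold changes of both signs. Uhrf1, which brings the maintenance methyltransferase to hemimethylated DNA, was at 5.50, 4.31 and 2.86 FPKM untreated and at 5.08, 6.95 and 6.44 after CXCL14. The untreated libraries spread widely and CXCL14 replicate 1 lay among them. On the log2 scale the fold change was 0.48 (SE 0.21, adjusted p by limma-trend = 0.573), and 0.59 without CXCL14 replicate 1 (SE 0.23, adjusted p = 0.157). Without untreated replicate 3, the lowest library, it was 0.28. Chaf1b, the middle subunit of the histone chaperone CAF-1, was at 5.71, 5.45 and 5.75 FPKM untreated and at 6.30, 4.12 and 4.26 after CXCL14. As for Mcm6, CXCL14 replicate 1 was the highest library and the other CXCL14 libraries the lowest. The log2 fold change was -0.19 (SE 0.15, adjusted p by limma-trend = 0.658), and -0.35 without CXCL14 replicate 1 (SE 0.09, adjusted p = 0.0765). Without CXCL14 replicate 2 it was -0.10. Chaf1a, the large subunit, had overlapping groups at 1.59 to 3.16 FPKM and a fold change of 0.11.

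Leaving out CXCL14 replicate 1 widened the range of the members' fold changes, and how many lay on each side depended on the scaling. The range became -0.35 to 0.62, around a median of 0.08 against -0.10 over all genes, and 23 members were positive, where 36.7% of all genes were. At an unadjusted p under 0.05, 7 members were higher, namely Cdt1, Cdc6, Pcna, Rfc3, Rrm2, E2f2 and Uhrf1, where 8.54% of all genes were higher. On the other side 5 members were lower, namely Mcm6, Prim1, Pold1, Rfc5 and Chaf1b, where 20.8% of all genes were lower. The 12 together compare with 29.3% of all genes in either direction. Under median-ratio scaling, 11 members were higher and 2 lower in this fit, where 14.0% and 10.1% of all genes were. With voom the counts were 7 and 3, against 8.68% and 20.1%. After adjustment over all genes, 0 members were called higher, against 2.16% of all genes, and 0 lower, against 3.02%. Groups did not overlap for 11 members with higher and 7 with lower values after CXCL14, against 13.4% and 34.9% of all genes. Under median-ratio scaling the counts were 17 and 4, against 22.5% and 21.6%. Without both libraries numbered 1, these counts were 18 and 7, against 15.5% and 37.1%, and 0 members were called, against 0.13% of all genes. Within one complex or pathway, and with the authors' scaling, some members lay on each side: Cdt1 against Mcm6, Pcna and Rfc3 against Rfc5 and Pold1, and Uhrf1 against Chaf1b. A difference between such members was not tested. Cdc6 is not set against Mcm6 here, since the group in which it was high helped it pass the filter.

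**Figure D4:**
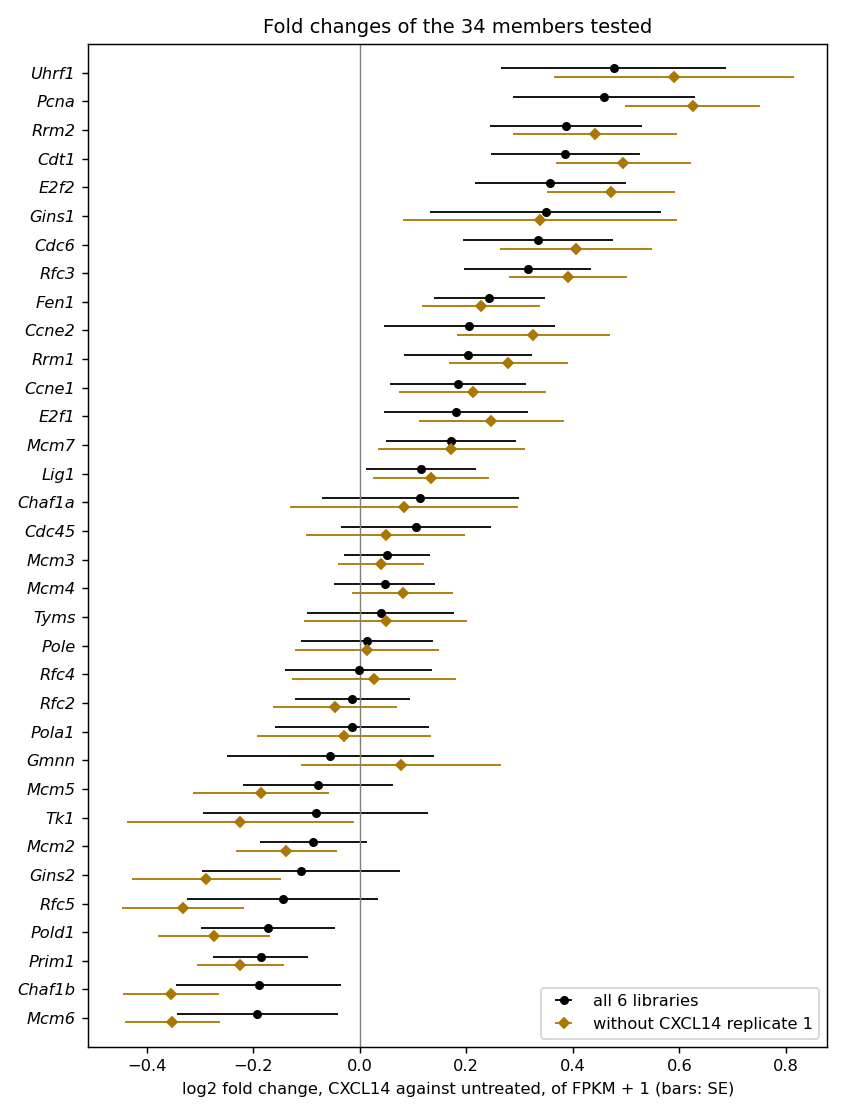
Log2 fold change (horizontal axis, of FPKM + 1, CXCL14 against untreated) with its SE for each of the 34 tested members, over all 6 libraries (circles) and without CXCL14 replicate 1 (diamonds). The diamonds run from -0.35 to 0.62, further from 0 on both sides than the circles, which run from -0.19 to 0.48, and no member has an adjusted p under 0.05 in either fit.

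Other genes of the pathway were centred near all genes. Of a list of 76 further replication and G1/S genes, 69 were tested, and 27 had a positive and 42 a negative fold change, with a median of -0.05, close to -0.06 for all genes (0.02 and 0.01 under median-ratio scaling). None passed the test, and groups did not overlap for 4 with higher and 9 with lower values after CXCL14, against 4.74% and 8.36% of all genes. The 3 with the smallest p were Dctd, Orc1 and Gins3, none of which passed. Orc1, the largest subunit of the origin recognition complex, was at 0.877, 0.972 and 1.23 FPKM untreated and at 1.24, 3.18 and 2.46 after CXCL14. It reached 1 FPKM in 1 untreated and 3 CXCL14 libraries, so it entered the test only through the group in which it was high. The groups did not overlap. The fitted log2 fold change was 0.66 (SE 0.24, adjusted p by limma-trend = 0.573), and 0.91 without CXCL14 replicate 1 (SE 0.15, adjusted p = 0.0429). That p is given as a value and no rise is read from it, since the filter favoured a high CXCL14 level.

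Gins3, the GINS subunit next to Gins1 and Gins2, was at 2.61, 2.65 and 2.68 FPKM untreated and at 2.32, 1.66 and 1.45 after CXCL14. All CXCL14 libraries were lower, and the log2 fold change was -0.39 (SE 0.14, adjusted p by limma-trend = 0.573). Dctd, dCMP deaminase, which feeds thymidylate synthesis, was at 1.44, 1.31 and 1.23 FPKM untreated and at 1.03, 0.497 and 0.551 after CXCL14. These groups did not overlap either, on 20 to 56 reads, with a log2 fold change of -0.47 (SE 0.16, adjusted p by limma-trend = 0.573). Dctd reached 1 FPKM in 3 untreated libraries and 1 CXCL14 library. It thus passed the filter through the group in which it was high, and no fall is read from it. Ccnd2, cyclin D2, which acts with CDK4 and CDK6 in G1, was at 17.6, 17.6 and 17.1 FPKM untreated and at 17.1, 12.5 and 13.2 after CXCL14. CXCL14 replicate 1 lay at the edge of the untreated libraries, and the fold change over all libraries was -0.29 (SE 0.13, adjusted p by limma-trend = 0.573). Without that library the log2 fold change of Ccnd2 was -0.42 (SE 0.08, adjusted p by limma-trend = 0.0489). Orc1 and Ccnd2 were the only 2 of the 69 under the threshold in that fit, against 5.18% of all genes. Without both libraries numbered 1 neither was, with adjusted p of 0.155 for Orc1 and 0.178 for Ccnd2. The Ccnd2 call was also lost without CXCL14 replicate 1 under median-ratio scaling. There 0 of the 69 were called lower, against 117 of all 11516 genes.

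Genes of mitosis had mostly positive fold changes. Of 22 such genes, 20 were tested, and 19 had a positive fold change, against 37.2% of all genes, with a median of 0.26. None passed the test, while groups did not overlap for 7, all with higher values after CXCL14, against 4.74% of all genes. The smallest p were those of Cdc20, Top2a and Ccnb1. Cdc20, the activator of the anaphase-promoting complex, was at 4.73, 4.38 and 4.06 FPKM untreated and at 6.01, 6.39 and 6.78 after CXCL14. Its groups were well apart, and CXCL14 replicate 1 lay with the other CXCL14 libraries. This gave a log2 fold change of 0.46 (SE 0.10, adjusted p by limma-trend = 0.573). Top2a, the topoisomerase of dividing cells, was at 8.04, 6.54 and 5.63 FPKM untreated and at 9.16, 10.4 and 10.4 after CXCL14. These groups were apart too, with a log2 fold change of 0.51 (SE 0.14, adjusted p by limma-trend = 0.573). Ccnb1, cyclin B1, was at 1.36, 1.49 and 1.24 FPKM untreated and at 2.22, 1.86 and 2.62 after CXCL14. There was no overlap between the groups, and the log2 fold change was 0.45 (SE 0.14, adjusted p by limma-trend = 0.573). Without CXCL14 replicate 1, 1 mitosis gene was called, against 5.18% of all genes: Foxm1, a factor that drives G2 and mitosis genes, rose by 0.59 (SE 0.11, adjusted p by limma-trend = 0.0495). The call was lost with voom in the same comparison, where 0 mitosis genes were called, and without both libraries numbered 1, where its adjusted p was 0.142. A difference between the lists was not tested.

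**Figure D5:**
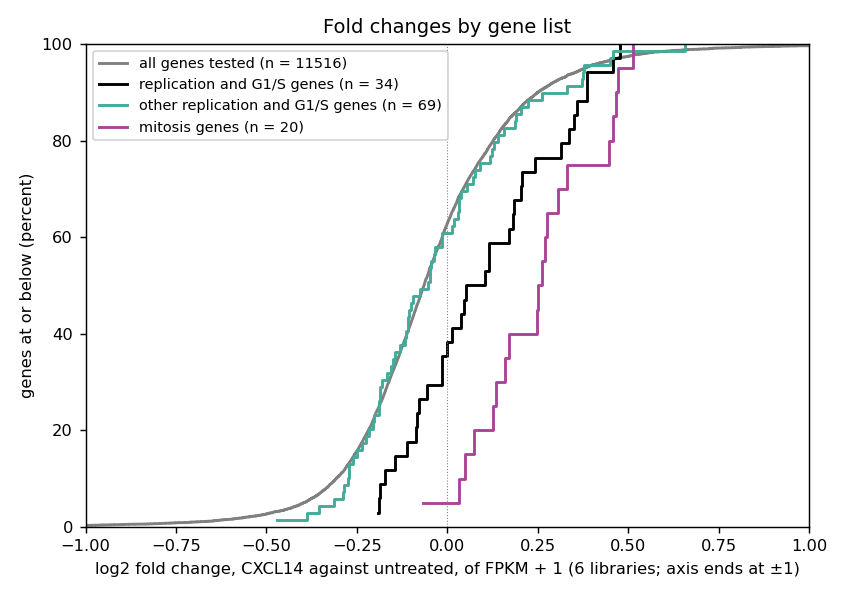
Cumulative share of genes, in percent (vertical axis), at or below each log2 fold change (horizontal axis, of FPKM + 1, CXCL14 against untreated, 6 libraries) for all genes, the 34 members, 69 other replication and G1/S genes and 20 mitosis genes. The curve of the other replication genes is centred near that of all genes, with medians of -0.05 and -0.06. The members and the mitosis genes are centred further right, with medians of 0.08 and 0.26.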

How the data were processed

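RNA sequencing covered 6 mammary gland libraries, 3 per group by their treatment label. Per the labels' protocol, RNA was extracted with Trizol and libraries were made with an NEBNext Ultra RNA kit. Each library's table, as deposited by the authors, holds an FPKM value for each gene symbol. Tools listed in the submitters' processing notes, without their roles, were HTSeq 0.6.0, Bowtie2 2.2.3 and HISAT2 2, with the build mm8. No source used here states strand or gene lengths, so reads of overlapping or near-identical genes cannot be told apart. For 100.0% of 17464 symbols, the FPKM steps gave the smallest whole reads in the same proportions, within 0.004 reads. A factor common to all counts of a gene is lost, so true counts can be higher. These reads served for depth, the comparison of libraries and voom. Main fits used limma 3.58.1 in R 4.3.3 (limma-trend) on log2(FPKM + 1), with no covariate, for genes that reached 1 FPKM in 3 or more libraries. This scale understates changes of low genes. Genes were called at a Benjamini-Hochberg adjusted p under 0.05 over 11516 genes. The code was tested on simulated data. Each SD is over a group's 3 libraries.

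The members and lists were chosen with earlier results of these data known. In each of 9 roles, the 2 members with the smallest unadjusted p and the member with the highest mean were described in full (20 genes), and Gmnn, Mcm10, Tk1 and Rfc5 were added after their values were seen. Of the other lists, called genes or else the 3 with the smallest p were named. Alternatives were another pseudocount, no filter, median-ratio scaling, voom, a replicate block and leaving out libraries. Promoter windows were RefSeq's for GRCm38.p6, used for sequence only, and a gene counted once if any of its windows matched. One of the cell type marker lists is not reported here.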

Additional observations from a re-analysis of the deposited data

How the results depend on the processing

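Over 12 other settings and 2 more that were added after seeing the data, 0 members were called in any, and the smallest adjusted p of a member was 0.0535, for Pcna. Of 280 recomputed fold changes of the 20 genes described by rule, 279 kept their sign. The exception was Gins2, whose value was 0.018 without CXCL14 replicate 3, within -0.288 to 0.018 over the fits that left out 1 library. Leaving out 1 library moved the fold change by over 1.5 times for 13 of the 20, in each case also toward 0 for some library, with values nearest to 0 of 0.11 for Ccne1, 0.02 for Cdc45, 0.21 for Gins1, 0.06 for Lig1, 0.02 for Mcm4 and 0.13 for Rrm1. The 7 that moved less were Cdc6, Cdt1, Fen1, Pcna, Prim1, Rfc3 and Rrm2. The members' median of 0.08 lay between 0.02 and 0.12 when 1 library was left out. It was 0.15 with median-ratio scaling and 0.175 (an added setting) with that scaling and without CXCL14 replicate 1, beside a spread between libraries of 0.07 (SD). That scaling moved the median of all genes from -0.06 to 0.01, and without CXCL14 replicate 1 from -0.10 to 0.01, where all-gene calls of 249 higher and 348 lower became 321 and 117. The 7 members with non-overlapping higher values became 8 to 15 when 1 library was left out. They were 15 without untreated replicate 1 and 11 without CXCL14 replicate 1. Over all 11516 genes, 546 became 633 to 1545, with 855 without untreated replicate 1 and 1545 without CXCL14 replicate 1. The members' count was 18 without both libraries numbered 1, 17 without CXCL14 replicate 1 under median-ratio scaling and 11 with voom there. All genes gave 1790, 2590 and 1547 in these settings. Fewer libraries overlap less by construction, and the cause was otherwise not tested. Calls among the other replication genes were 0 to 2 when 1 library was left out, and without CXCL14 replicate 1 they were 1 under median-ratio scaling and 2 with voom. Calls among mitosis genes were 0 to 1 when 1 library was left out, and without CXCL14 replicate 1 they were 2 under median-ratio scaling and 0 with voom. Without both libraries numbered 1 they were 0 in both lists. The cause was not tested.

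Whether the replicate numbers pair the samples was not settled. Same-numbered libraries' deviations from their group means correlated at 0.69, -0.30 and 0.06. The 0.69, for the libraries numbered 1, was the highest of all pairs, and pairs with different numbers reached 0.60. Deviations sum to 0 within a group, so these values depend on each other and cannot decide it. With the replicate block, 0 members were called and the median was 0.08. There 1 member, Pcna, had an unadjusted p under 0.05, where 6.96% of all genes did. Depth limits most of all Gins1, on 18 to 59 reads per library, Mcm10, on 31 to 57, and Gins2, on 37 to 60. The planned description of protein sequences was not run.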
